A study of Mus musculus with 2 samples.

Results

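The immunity-related GTPases (IRGs) were examined in cultured primary mouse liver cells in which the double-stranded RNA deaminase ADAR1 was to be deleted. Members were taken by gene symbol from the deposited table: Irgm1, Irgm2, Igtp, Iigp1, Tgtp1, Tgtp2 and Ifi47, with the giant GTPase gene Gvin1. All 8 were found, each on 1 row of the 17145 in the table. The data were 2 RNA-seq libraries of primary hepatic stellate cells, the pericytes that become myofibroblasts in liver injury. Both came from mice of genotype Adar1f/f/Cre-ER, with loxP-flanked Adar1 and a recombinase that 4-hydroxytamoxifen (4-OHT) activates. One library was from cells given vehicle and the other from cells given 100 nM 4-OHT, each after 4 days of activation in culture. The vehicle cells carried the same alleles, and cells without Cre-ER given 4-OHT were not among the groups, so the drug and the deletion cannot be told apart. The promoter that drives Cre-ER, the age of the mice and any pooling are not stated in the labels. Adar itself was not analysed here, so the deletion could not be checked. As each group has a single library (n = 1), differences could not be set against replicates, no test was made, and each is a difference between these libraries.

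IRGs are interferon-inducible GTPases of cell-autonomous immunity. In mice they coat the vacuoles in which parasites such as Toxoplasma and bacteria such as Chlamydia live, and break them open. The family falls into classes named for the end of the nucleotide-binding loop. The GMS proteins, Irgm1, Irgm2 and Igtp, sit on host membranes and keep the others inactive, and the GKS proteins, among them Iigp1, Tgtp1, Tgtp2 and Ifi47, load onto the vacuole as effectors. Gvin1 encodes a very large interferon-inducible GTPase of less known function. Transcription of IRG genes is known to be induced by interferons through GAS elements and interferon-stimulated response elements (ISREs) in their promoters.

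The class of each member could be read in its coding sequence. The coding bases of the loop are shown, from the GENCODE M21 transcript with the longest reading frame, with the codon that tells the classes apart in capitals.
Irgm1: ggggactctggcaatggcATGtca
Irgm2: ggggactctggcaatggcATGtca
Igtp: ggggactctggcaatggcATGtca
Tgtp1: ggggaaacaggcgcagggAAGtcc
Tgtp2: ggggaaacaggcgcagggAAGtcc
Ifi47: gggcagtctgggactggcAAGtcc
Gvin1: ggcctgcagagctcagggAAGtct
The 3 regulators had the methionine codon ATG there, and the loop's 24 bases were the same in all 3. The effectors and Gvin1 had the lysine codon AAG, and the loop of Iigp1 was also of the GKS form. The loop began at residue 83 of 409 in Irgm1 and at residue 63 of 415 in Tgtp1, but at residue 1495 of 2427 in Gvin1.

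All 8 members were at least 2-fold higher in the 4-OHT library, beside 5.78% of the 13558 genes tested, those reaching 1 FPKM in either library. FPKM is fragments per kilobase of transcript, scaled to library size, as the authors deposited it. Changes are the log2 of FPKM plus 1, 4-OHT over vehicle, a scale that understates the change of low genes. The median change of the members was 3.17, against 0.03 over all genes tested, and their changes ranged from 1.70 to 4.60. At 4-fold, 6 of the 8 were higher, beside 2.16% of genes. The summed FPKM of the 8 was 43.7 with vehicle and 703 with 4-OHT, a ratio of 16.1.

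**Figure D1:**
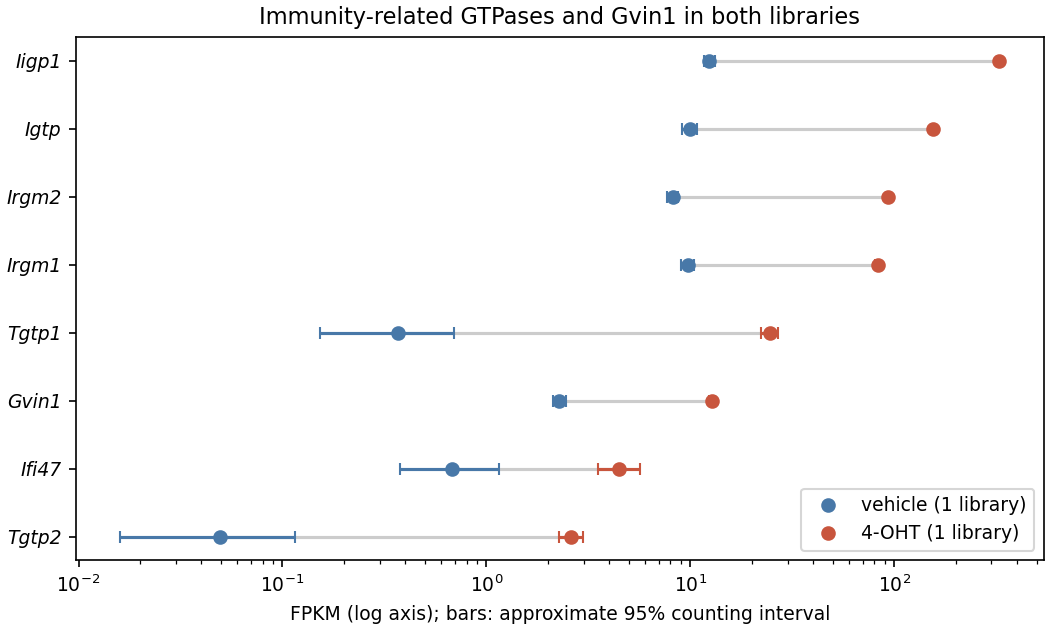
FPKM (log axis) of each member in the vehicle and the 4-OHT library, 1 point per library, ordered by the 4-OHT level. Bars are approximate 95% intervals for counting error. Every member's 4-OHT point lies to the right of its vehicle point, from 8.55-fold for Irgm1 to 26.2-fold for Iigp1 among the 4 most abundant.

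The GMS regulators were all measured well above zero with vehicle and were higher with 4-OHT. Irgm1, a regulator on Golgi and lysosomal membranes (ENSMUSG00000046879.7, chromosome 11, 48861968 to 48871683, minus strand, GRCm38), had 9.74 FPKM under vehicle and 83.3 under 4-OHT. That is a log2 change of 2.97 and a ratio of 8.55, with an approximate 95% counting interval of 7.92 to 9.28. Irgm2, its relative of the Golgi (ENSMUSG00000069874.7, chromosome 11, 58199618 to 58222782, plus strand), had 8.21 FPKM under vehicle and 93.6 under 4-OHT, a log2 change of 3.36 and a ratio of 11.4 (10.7 to 12.2). Igtp, also called Irgm3, a regulator on the endoplasmic reticulum and lipid droplets (ENSMUSG00000078853.8, chromosome 11, 58199556 to 58207591, plus strand), had 9.93 FPKM under vehicle and 156 under 4-OHT, a log2 change of 3.84 and a ratio of 15.7 (14.5 to 17.1). The intervals of these ratios did not overlap, so Irgm1, Irgm2 and Igtp stood in that order of change beyond counting error. Counting error leaves out the spread between cultures. With vehicle, the levels of Irgm1 and Igtp did not differ beyond it (intervals 9.04 to 10.5 and 9.15 to 10.7 FPKM). The 3 regulators together summed to 27.9 FPKM under vehicle and 333 under 4-OHT.

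Among the GKS effectors, 1 gene held most of the transcript and the others were near the limit of detection with vehicle. Iigp1, or Irga6, an effector of Toxoplasma vacuoles (ENSMUSG00000054072.12, chromosome 18, 60376027 to 60392634, plus strand), had 12.4 FPKM under vehicle and 325 under 4-OHT, a log2 change of 4.60 and a ratio of 26.2 (24.7 to 27.9). It was the highest member in both libraries and held 28.5% of the members' summed FPKM with vehicle and 46.3% with 4-OHT. By change it ranked 50 among the 13558 genes, and by level it went from rank 6092 with vehicle to rank 178 with 4-OHT.

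Tgtp1, or Irgb6, a GTPase first named from T cells (ENSMUSG00000078922.9, chromosome 11, 48985327 to 48994172, minus strand), had 0.370 FPKM under vehicle and 24.6 under 4-OHT. The log2 change was 4.22, and the ratio of 66.4 was the largest of the members when nothing was added to FPKM. Its vehicle level stood for only about 8 to 38 fragments, depending on the transcript, so the interval of the ratio was 35.3 to 164. Tgtp2, its near-copy (ENSMUSG00000078921.3, chromosome 11, 49057194 to 49064206, minus strand), had 0.0492 FPKM under vehicle, or about 5 fragments, and 2.60 under 4-OHT, a log2 change of 1.78 and a ratio of 52.9 (22.4 to 165). The ratios of Tgtp1 and Tgtp2 did not differ beyond counting error, although the added 1 set their log2 changes far apart. Ifi47, or Irgd (ENSMUSG00000078920.3, chromosome 11, 49076587 to 49096974, plus strand), had 0.682 FPKM under vehicle and 4.48 under 4-OHT, a log2 change of 1.70 and a ratio of 6.56 (3.69 to 12.6). Ifi47 thus had the lowest log2 change of the 8 members. Together the 4 GKS genes summed to 13.5 FPKM under vehicle and 357 under 4-OHT, a ratio of 26.4 beside 11.9 for the 3 regulators. By the median log2 change the order was the other way, with 3.001 for the GKS genes and 3.360 for the regulators. That order depends on the added 1, which lowers the changes of Tgtp1, Tgtp2 and Ifi47 most. With 0.1 added instead, Iigp1 (4.70), Tgtp1 (5.71) and Tgtp2 (4.18) lay above Igtp (3.96), the highest regulator. Ifi47 (2.55) then lay below all 3 regulators.

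Gvin1 (ENSMUSG00000045868.12, chromosome 7, 106156556 to 106215326, minus strand) had 2.28 FPKM under vehicle and 12.8 under 4-OHT. Its log2 change was 2.07 and its ratio of 5.62 (5.20 to 6.09) the lowest of the 8, though not below that of Ifi47 beyond counting error. Its row stood for about 757 and 3372 fragments over a long transcript. However, 98.3% of its 50-base windows also stand in the neighbouring gene Gm4070. Its fragments, interval and rank therefore hold only for the division of fragments as deposited.

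**Figure D2:**
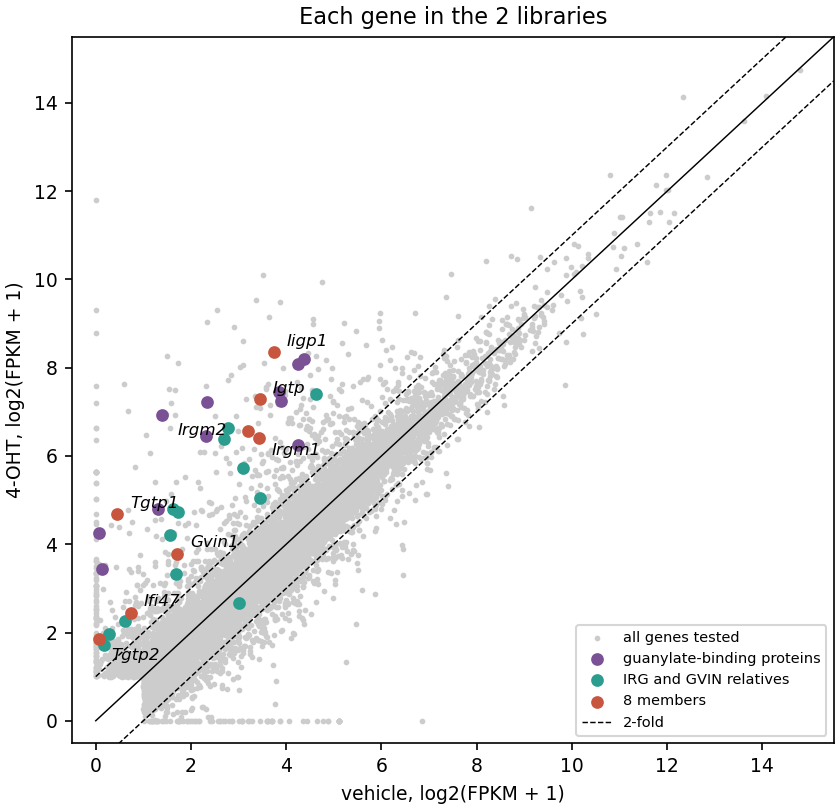
Each gene that reached 1 FPKM in either library, as log2(FPKM + 1) with vehicle (x axis) and with 4-OHT (y axis); dashed lines mark 2-fold. All 8 members lie above the upper dashed line, from Tgtp2 at 0.0492 and 2.60 FPKM to Iigp1 at 12.4 and 325 FPKM.

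The division of fragments among several members is uncertain, because they share sequence or overlap. The counting intervals leave this uncertainty out. Tgtp1 and Tgtp2 differed by 4 of 1248 coding bases, and 81.2% of the 50-base windows in Tgtp1 transcripts and 86.6% of those in Tgtp2 transcripts also stood in another gene. Gvin1 and the neighbouring gene Gm4070 differed by 3 of 7284 coding bases, and 99.2% of Gvin1 windows were shared. For Irgm1 and Iigp1 the share was 0.379% and 1.69%, so these 2 are the members least open to such division. Summed, Tgtp1 and Tgtp2 had a log2 change of 4.31, and Gvin1 with Gm4070, at 7.49 and 52.3 FPKM, had 2.62.

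Overlap on the same strand touched 3 further members. The annotated span of Irgm2 begins within that of Igtp, and 11.8% of Igtp windows were shared with Irgm2; the pair summed to a log2 change of 3.71. Ifi47 lies within the annotated span of Olfr56, an olfactory receptor gene named here after its values were seen. That span also covers Tgtp1 and Tgtp2, which lie on the other strand. On its own strand, the span of Tgtp1 overlaps that of the relative Gm12185, and the span of Gvin1 holds the relative Gm18853. The Olfr56 row was at 1.38 and 22.3 FPKM, a log2 change of 3.29, above that of Ifi47 itself. Summed, Ifi47 and Olfr56 had a log2 change of 3.18, against 1.70 for the Ifi47 row alone. Of the 50-base windows in Ifi47 transcripts, however, only 2.54% also stood in Olfr56 transcripts. How many of the Olfr56 fragments came from Ifi47 was not tested.

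**Figure D3:**
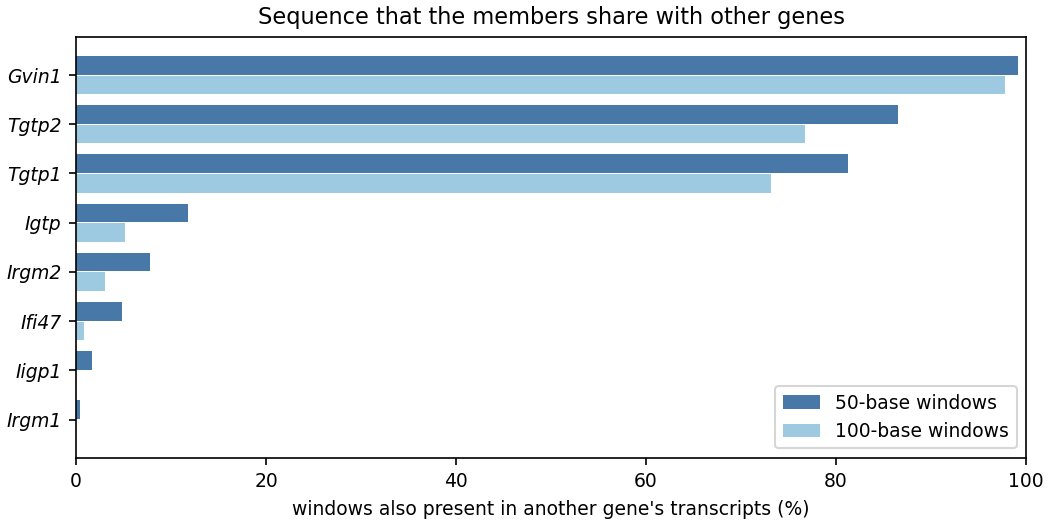
Percent of the distinct 50-base and 100-base windows of each member's annotated transcripts that also occur, on either strand, in transcripts of another gene. Gvin1, Tgtp2 and Tgtp1 share 99.2%, 86.6% and 81.2% of 50-base windows, and the other 5 members at most 11.8%.

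The authors' deposited table gave a q-value of 0.00466 to 5 members, Irgm1, Irgm2, Igtp, Iigp1 and Gvin1, and of 0.9996 to Tgtp1, Tgtp2 and Ifi47. In that table, 1.72% of the 17145 rows had a q-value under 0.05 and were higher with 4-OHT. The 3 uncalled members were deposited under a single locus of chromosome 11, 48904656 to 49135387, that held 7 genes, and none of the 7 had a q-value under 0.05 in the authors' deposited table. The 7 rows of this locus summed to 14.8 FPKM with vehicle and 97.1 FPKM with 4-OHT, a ratio of 6.57. In contrast to those rows, Igtp and Irgm2, which also share a locus, were both called. Gvin1 was called, but Gm18853 in the same locus was not. Gm4070, the near-copy of Gvin1, was not called either, with a q-value of 0.138 in the authors' deposited table. The authors' q-values rest on 1 library per group and compare the libraries, not the conditions.

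Upstream of 5 of the 6 members with a promoter window in the RefSeq table (GRCm38.p6, 250 bases before to 50 after the start), letters of interferon elements were found. Windows were available for Irgm1, Irgm2, Igtp, Tgtp1, Tgtp2 and Ifi47; Iigp1 and Gvin1 had no entry. The GAS letters TTCNNNGAA and the ISRE letters, GAAA, any 2 bases and GAAA again, were searched on both strands. Stretches that hold them are printed 5′ to 3′ on the strand of the gene, with matching bases in capitals, because 4 of them have the same layout.
Irgm1, chr11:48871415-48871470, minus strand: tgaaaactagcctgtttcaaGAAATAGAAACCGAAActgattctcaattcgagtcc
Irgm2, chr11:58214882-58214942, plus strand: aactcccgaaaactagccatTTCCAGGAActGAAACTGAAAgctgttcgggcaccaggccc
Igtp, chr11:58199491-58199551, plus strand: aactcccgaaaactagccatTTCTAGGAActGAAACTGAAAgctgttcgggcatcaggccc
Tgtp1, chr11:48992294-48992354, minus strand: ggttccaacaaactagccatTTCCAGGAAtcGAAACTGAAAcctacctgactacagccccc
Tgtp2, chr11:49064253-49064313, minus strand: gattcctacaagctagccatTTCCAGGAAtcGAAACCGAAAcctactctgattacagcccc
In Irgm2, Igtp, Tgtp1 and Tgtp2 a GAS match was followed, after 2 bases, by an ISRE match. In Irgm1 there were 2 ISRE matches that overlap each other and no GAS match. In the Ifi47 window these letters did not occur.

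A GAS match stood in 8.30% of the 32851 RefSeq promoter windows of all genes and an ISRE match in 3.44%, and both stood in 0.454%. The GAS-to-ISRE layout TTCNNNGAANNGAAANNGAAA, spelled out after the members' windows had been read, occurred in 5 of the 32851 windows. These were Irgm2, Igtp, Tgtp1, Tgtp2 and the IRG relative Gm12185, whose own row, given after its values were seen, was at 0.122 and 2.30 FPKM. These genes are copies of one another in part, so the 5 windows are not independent. Gm12250, a relative described next, had GAS and ISRE matches in another layout. Of 7 relatives with a window, 4 had an ISRE match and 2 a GAS match. The relatives Gm5431 and 9930111J21Rik2, both at least 2-fold higher, had neither. Irgq, a relative that was not 2-fold higher, also had neither. A match in letters is a description and not a binding site.

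The members lie in 4 clusters with their relatives, and genes just outside the clusters mostly changed little. Of 13 measured relatives on a list of IRG and GVIN rows, 12 passed 2-fold upwards and 1 stayed within it, with a median change of 2.63. Gm12250, which RefSeq also calls Irgb10, an effector that acts on bacterial membranes, had 5.86 FPKM under vehicle and 99.0 under 4-OHT, and the ratio was 16.9 (14.9 to 19.4). GENCODE lists Gm12250 as a processed pseudogene and RefSeq as protein-coding. Gm4951 next to Iigp1, also called Ifgga2, had 5.45 and 82.1 FPKM, 15.1 times as much (13.8 to 16.5), and F830016B08Rik, or Ifgga4, had 2.09 and 27.1 FPKM, 13.0 times as much (11.4 to 14.8). Gm5431, beside Irgm1, was at 2.33 and 25.4 FPKM, and the GVIN pseudogene row Gm8995 at 23.7 and 168 FPKM, with log2 changes of 2.99 and 2.77. The exception, given after its values were seen, was Irgq, a distant relative outside the 4 clusters, with 7.02 and 5.33 FPKM and a ratio of 0.760 (0.701 to 0.824).

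Of 40 other genes tested within 500 kb of the clusters, 3 were at least 2-fold higher, or 7.5%, near the 5.78% of all genes, and the median change was 0.07. That count leaves out 4 genes inside the clusters that are not on the lists of members and relatives, named after their values were seen. They were Olfr56 (log2 change 3.29), Gm5970 (3.22), Gm18852 (1.62) and Gm4759 (0.89), of which 3 were at least 2-fold higher. Whether any of these 4, or of the 40, is a relative by sequence was not tested. Around the chromosome 11 cluster from Irgm1 to Olfr56, the 6 flanking genes had changes from 0.02 to 0.39. Around the cluster from Gm12250 to Irgm2, the 11 flanking genes ranged from −0.28 to 0.82. The 3 higher flanking genes, named after their values were seen, were BC023105 (log2 change 2.41), a pseudogene 49.1 kb beyond Iigp1, Cd74 (1.60), the MHC class II invariant chain, and the predicted gene Gm45799 (1.70).

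**Figure D4:**
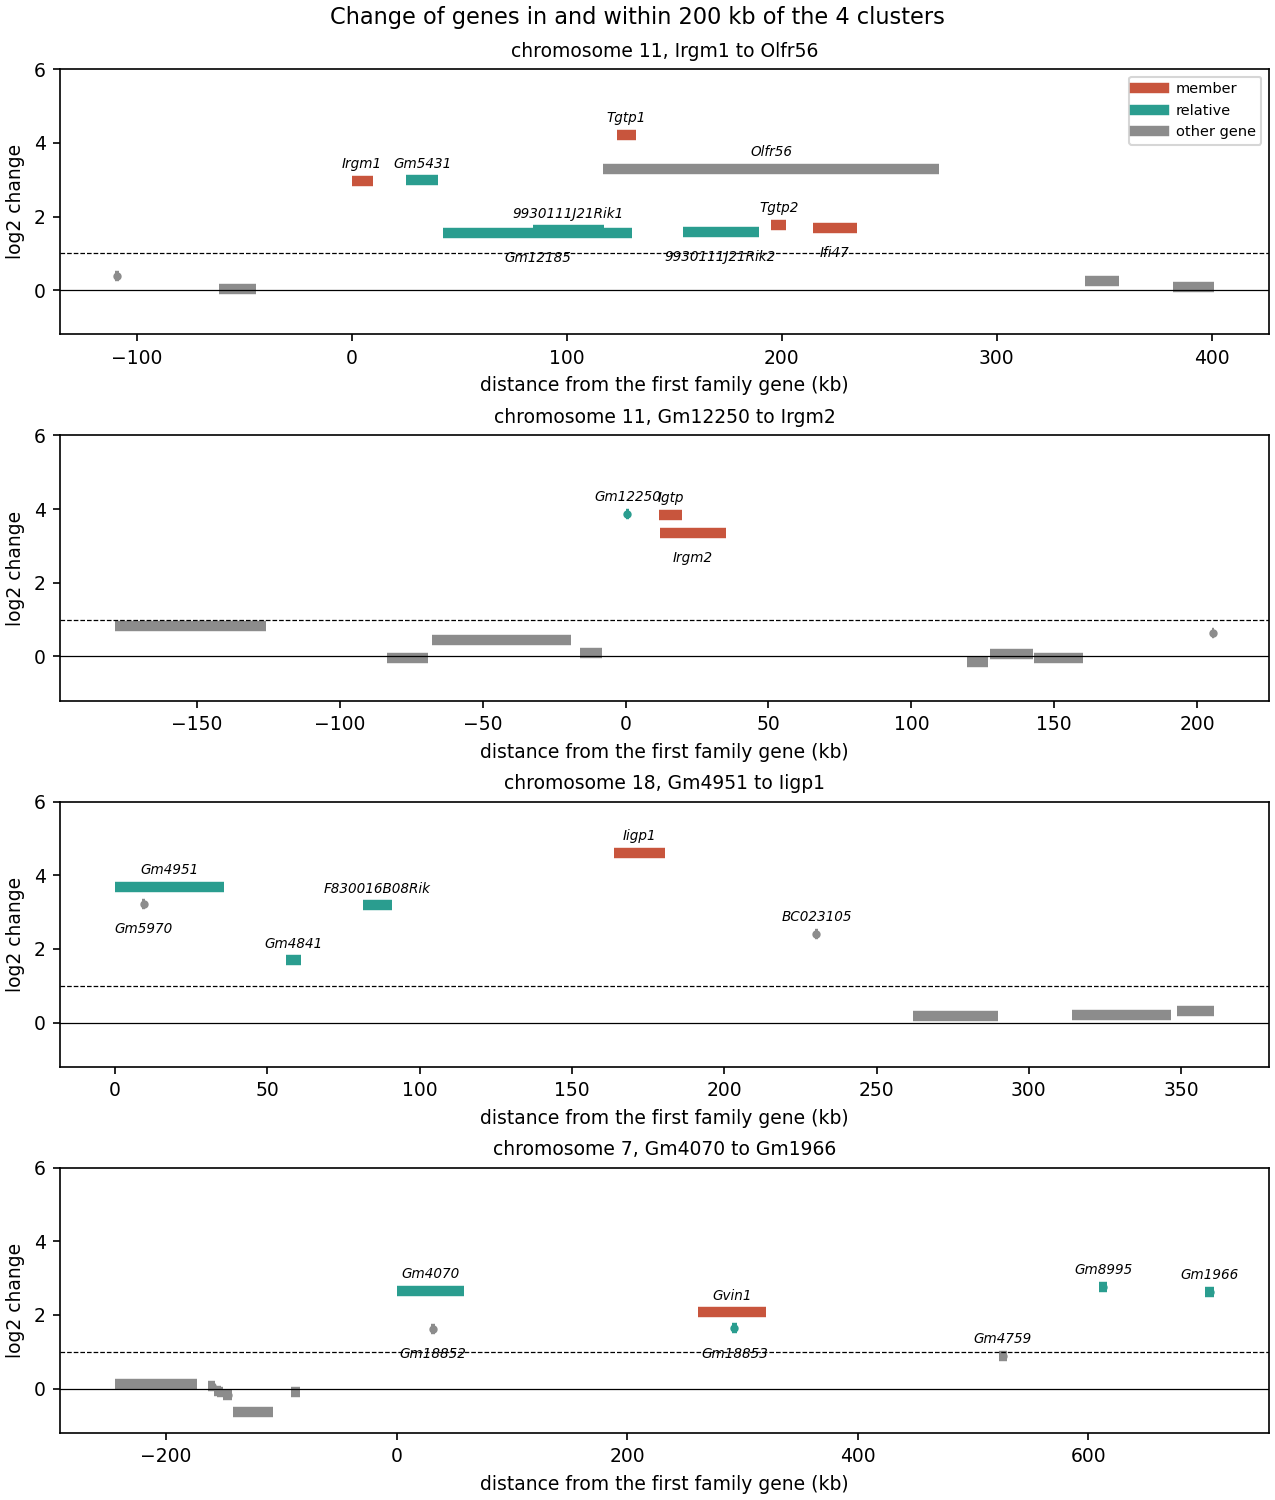
Log2 change of FPKM + 1 (y axis) of genes in the 4 clusters and within 200 kb of them, drawn as bars over their annotated extent in kb from the first family gene. Members and relatives stand above the dashed 2-fold line, and of the flanking genes drawn only BC023105, at 2.41, does.

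Genes of the interferon pathway, known to induce IRG transcription, were higher at some steps and not at others. Of 17 tested genes of a list from ligands to transcription factors, 7 were at least 2-fold higher and the other 10 stayed within 2-fold; the median change was 0.68. Among ligands, Ifnb1, interferon beta, was listed at 0 under vehicle and at 21.6 FPKM under 4-OHT. The 4-OHT level was 159 times an assumed floor of 3 fragments in the vehicle library. The exact counting interval of the ratio begins lower, at 130.1. Ifng, interferon gamma, the classical IRG inducer, given after its values were seen, was at 0.151 and 0.569 FPKM, under the minimum of 1 in both libraries. The receptor genes Ifngr1, Ifngr2, Ifnar1 and Ifnar2 stayed within 2-fold. Stat2, a factor of the type I interferon complex, was at 21.7 and 156 FPKM (log2 change 2.79). Irf1, an interferon-induced transcription factor, was at 51.3 and 213 FPKM (2.03), and Irf9, the DNA-binding part of the type I complex, at 19.5 and 60.6 FPKM (1.59). Nlrc5, an activator of MHC class I genes, was at 11.8 and 69.6 FPKM (2.47).

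Partners of IRGs on vacuoles divided by kind. All 11 guanylate-binding protein genes, large GTPases that act with IRGs, were at least 2-fold higher, with a median change of 3.83. The maximum was 5.53 for Gbp5 and the minimum 1.99 for Gbp8, given after its values were seen. These genes also share sequence among themselves. Of 18 autophagy and ubiquitin genes, 4 were higher and the other 14 stayed within 2-fold; the median change was 0.06. With each library scaled to sum to 1000000 FPKM the count was 2, and Sqstm1 lay just under 2-fold. Among the higher genes, Trim21, a ubiquitin ligase, was at 8.78 and 45.6 FPKM (log2 change 2.25) and Rnf31, the catalytic part of the linear ubiquitin ligase, at 9.97 and 39.5 FPKM (1.88). Sqstm1, the ubiquitin-binding receptor p62, was at 334 and 750.1 FPKM (1.16). The conjugation genes that IRG loading needs, Atg5, Atg7, Atg16l1 and Atg3, stayed within 2-fold. Gabarapl2, an ATG8 homologue in that pathway, was at 16.7 and 11.5 FPKM (−0.50).

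**Figure D5:**
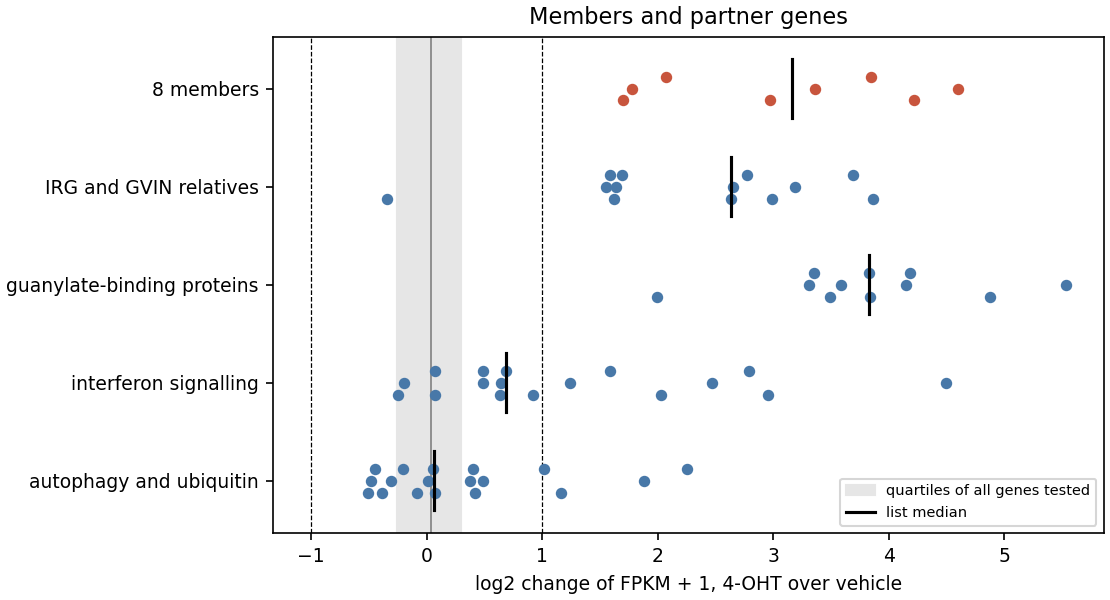
Log2 change of FPKM + 1 of each tested gene of 5 lists, with the list median as a black line and the quartiles of all genes tested as a grey band; dashed lines mark 2-fold. The medians are 3.17 for the members, 2.63 for relatives, 3.83 for guanylate-binding proteins, 0.68 for interferon signalling and 0.06 for autophagy and ubiquitin genes.

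The protein-coding genes closest to each member over the 2 libraries, by distance in log2(FPKM + 1), are given as a description. Nearest to Iigp1 was Ifi44 (10.5 and 275 FPKM, distance 0.33), and nearest to Igtp was Phf11b (9.11 and 164 FPKM, 0.13). Irgm1 was nearest to Parp11 (9.04 and 70.8 FPKM, 0.25), Irgm2 to Dhx58, a regulator of RNA sensors (6.88 and 93.6 FPKM, 0.22), and Gvin1 to Trim34a (2.50 and 13.8 FPKM, 0.14). Nearest to Tgtp1 was Ifi214 (0.257 and 20.7 FPKM, 0.27), to Tgtp2 Gm20431 (0.00637 and 2.39 FPKM, 0.11) and to Ifi47 Adtrp (0.659 and 4.48 FPKM, 0.020). With 2 libraries, such nearness says only that the levels were alike in both.

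Markers of macrophages and endothelial cells were abundant in both libraries. Which cells the IRG transcripts came from cannot be told apart in these libraries. Of 12 macrophage markers all were detected, with a summed level of 6174 FPKM with vehicle and 4139 FPKM with 4-OHT and a median log2 change of −0.23; the highest, Lyz2, was at 3050 and 1353 FPKM. The 8 endothelial markers summed to 1002 and 881 FPKM. The 12 measured stellate and myofibroblast markers summed to 410 and 135 FPKM, with Lrat, the retinol-storing enzyme, at 1.36 and 0.209 FPKM, and 7 of the 12 were at least 2-fold lower, beside 3.48% of genes. Hepatocyte markers summed to 1.83 and 0.388 FPKM and the 5 measured lymphocyte markers to 6.32 and 9.55 FPKM. Of the macrophage markers 2 of 12 were at least 2-fold lower, of the endothelial markers 2 of 8 and of the mesothelial markers 2 of 4 tested, and none of these was at least 2-fold higher. IRG genes can be induced in all of these cell types, and the part of each in the result was not tested. In such bulk samples, fewer cells of a type and less RNA per cell cannot be told apart.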

How the data were processed

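Gene-level values of 2 libraries, 1 with vehicle and 1 with 4-OHT, were used, grouped by the treatment in the labels. Per the file headers, the authors deposited 1 FPKM value per gene and library; STAR, Cufflinks and GRCm38 are named without versions in the submitters' processing notes. How libraries were scaled is not stated there. The authors also deposited a p-value and a q-value for each row. A deposited log2 fold change column equals the log2 of 4-OHT FPKM plus 1 over vehicle FPKM plus 1. All 17145 identifiers matched GENCODE M21, which gave coordinates and transcripts; 20 symbols turned into dates were restored, and for 17 symbols on several rows the highest was kept, leaving 17128.

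The FPKM sum was 493531 with vehicle and 553634 with 4-OHT. Depth was recovered from low values of genes with 1 transcript over 600 bases: 97.4% of 572 vehicle values and 98.9% of 558 4-OHT values lay within 0.1 of whole fragments, and 1 FPKM over 1 kb stood for 38.6 and 30.5 fragments. Every member has several transcripts, so its fragments are approximate, taken for the shortest coding transcript over 600 bases. Ratio intervals are exact binomial (Clopper-Pearson) at 95%, and level intervals exact Poisson; both cover counting error only, since PCR copies cannot be told from molecules. The depth fit was tested on simulated data. No test across replicates was possible. Genes that reached 1 FPKM in either library were tested for a 2-fold difference.

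Named genes were the members, genes of the partner lists and the protein-coding genes nearest to each member. Of each partner list, values are given for at most the 6 genes with the largest absolute change. Of each marker list, the highest gene and those under 1 FPKM could be named, but not all of them were. Genes given otherwise are marked so. Values of some listed genes are not reported here. The members and lists were chosen with earlier results of these data known. Alternatives were pseudocounts, minimum values, scaling, thresholds and sums of related rows. Python 3.11.15, numpy 2.4.6, pandas 2.3.3, scipy 1.17.1 and matplotlib 3.10.9 were used.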

Additional observations from a re-analysis of the deposited data

How the results depend on the processing

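All 46 member values recomputed under other pseudocounts, scalings and row sums stayed above 0, and 44 stayed at least 2-fold higher. The exceptions were Tgtp2 (0.59) and Ifi47 (0.74) with a pseudocount of 5. Only the scalings could have changed a sign, because a pseudocount or a sum of rows that are both higher cannot. Each member has 1 row, so the sums over rows of a symbol equal the reported values. The sums of Tgtp1 with Tgtp2 and of Igtp with Irgm2 are each counted for both genes. The members' median of 3.17 moved to 3.73 with a pseudocount of 0.1, to 2.52 with a pseudocount of 5, to 3.60 for genes of at least 5 FPKM and to 3.36 with Tgtp1 and Tgtp2 counted once. The count of higher members was 6 with a pseudocount of 5, with a minimum of 5 FPKM and at 4-fold, and 5 by q-value in the authors' deposited table. The count of higher autophagy and ubiquitin genes fell from 4 to 2 when each library was scaled to sum to 1000000 FPKM; counts of the other lists stayed within 1.5 times under the alternatives run. Which member changed most depends on these choices: Tgtp1 led with a pseudocount of 0.1 (5.71) and with that scaling (4.70, against 4.49 for Iigp1), and Iigp1 with 1 (4.60) and with 5 (4.24). The sums of Ifi47 with Olfr56, of Igtp with Irgm2 and of Gvin1 with Gm4070 were chosen after the data were seen, and add FPKM of transcripts of different lengths. No library could be left out, and no paired analysis was possible because each group has 1 library. Depth limits Tgtp1, Tgtp2 and Ifi47 with vehicle.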
